A study of Mus musculus with 12 samples.

Results

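Hypothalamic transcriptomes of obese mice given aged garlic extract (Ob + EAE) were compared with those of obese mice given resveratrol (Ob + RSV), a plant polyphenol. The comparison used the read counts of 2 Ob + EAE libraries and 3 Ob + RSV libraries, 5 of the 12 libraries of the study. It covered every gene with at least 10 reads in total over these 5 libraries, 30433 of the 78334 genes in the count table. The question was how the response to one dietary compound differs from that to the other, and in particular which differences hold in every library. All mice were male C57BL/6, 8 weeks old at the start, and both treated groups received a high-fat diet (HFD) with 60% of its energy as fat. Aged garlic extract was given at 200 mg/kg and resveratrol at 2.25 mg/kg, each by gavage once a day for 28 days from 16 weeks of age, so the agent and its dose cannot be told apart. The remaining libraries came from 3 mice on standard chow (C) and 3 untreated obese mice (Ob), all gavaged with vehicle alone, and from 1 obese mouse given curcumin at 50 mg/kg (Ob + CUR). The labels give an HFD of 8 weeks altogether, and also a gavage that began at week 8 of the HFD, whereas the results text of the study places resveratrol in the last weeks of the HFD. The total length of the diet is thus uncertain, and for Ob + EAE the sources used here do not say whether it went on during gavage. The labels list the libraries of a group as separate samples but do not say that the Ob + EAE libraries came from separate mice. The p-values of the main fit rest on a spread between libraries pooled over the groups of all 12 libraries (7 residual degrees of freedom). Whether that spread holds between mice given aged garlic extract is thus not known.

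The hypothalamus integrates hormonal and nutrient signals and controls feeding, body temperature, water balance and the pituitary gland. Its neurons use short peptides, such as those encoded by Pomc, Npy and Pmch, and they sense leptin and insulin, which reach them through the brain's capillaries. Brain capillaries are lined by endothelial cells that form the blood-brain barrier, wrapped by pericytes, and arterioles also carry smooth muscle. Endothelial cells respond to vascular endothelial growth factor (VEGF) and to angiopoietins through receptor tyrosine kinases, which are encoded by genes such as Flt1, Kdr, Tie1 and Tek. Because the samples are bulk tissue, fewer cells of a type and less RNA per cell cannot be told apart.

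Of the 13 genes called higher in Ob + EAE, 4 encode receptors or a co-receptor of endothelial cells (Flt1, Kdr, Tie1 and Eng), and their promoters are shown because these members moved together. The sequences are those of RefSeq (GRCm38.p6), from 250 bases before to 50 bases after the start of the gene, and capitals mark each AGGAAG or its reverse complement CTTCCT, the core of a motif bound by ETS-family factors, searched on both strands. The table of promoters held 9 of the 15 called genes.
Flt1 promoter, chr5:147725962-147726261, minus strand: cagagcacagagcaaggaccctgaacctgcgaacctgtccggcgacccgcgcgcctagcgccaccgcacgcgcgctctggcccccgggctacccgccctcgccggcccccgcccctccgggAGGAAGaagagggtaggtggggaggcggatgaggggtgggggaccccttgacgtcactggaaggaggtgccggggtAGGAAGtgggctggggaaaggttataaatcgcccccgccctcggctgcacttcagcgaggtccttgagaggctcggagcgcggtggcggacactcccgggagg
Tie1 promoter, chr4:118489800-118490099, minus strand: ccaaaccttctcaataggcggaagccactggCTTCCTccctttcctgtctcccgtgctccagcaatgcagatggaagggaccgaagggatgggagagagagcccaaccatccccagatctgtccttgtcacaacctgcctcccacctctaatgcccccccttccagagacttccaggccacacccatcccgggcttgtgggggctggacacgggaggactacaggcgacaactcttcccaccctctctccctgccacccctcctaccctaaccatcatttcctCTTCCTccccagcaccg
Eng promoter, chr2:32646345-32646644, plus strand: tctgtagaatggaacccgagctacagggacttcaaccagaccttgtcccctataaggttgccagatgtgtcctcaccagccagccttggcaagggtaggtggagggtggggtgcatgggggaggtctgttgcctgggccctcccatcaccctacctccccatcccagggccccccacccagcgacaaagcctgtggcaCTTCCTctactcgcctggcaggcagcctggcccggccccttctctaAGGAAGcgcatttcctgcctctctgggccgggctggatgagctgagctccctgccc
Kdr promoter, chr5:75978406-75978705, minus strand: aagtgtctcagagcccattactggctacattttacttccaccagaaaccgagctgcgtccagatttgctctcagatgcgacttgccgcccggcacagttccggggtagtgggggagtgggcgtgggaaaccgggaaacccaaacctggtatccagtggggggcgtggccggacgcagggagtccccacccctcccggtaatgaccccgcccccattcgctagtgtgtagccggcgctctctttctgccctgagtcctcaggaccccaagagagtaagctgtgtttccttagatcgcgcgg
The promoters of Flt1, Tie1 and Eng held 2 matches each, as did that of Abcb1a, and Kdr held none. In all, 4 of the 9 promoters of called genes held the letters, against 35.4% of 32851 promoters of the same length (300 bases), a share near that background.

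Total counts were 21120304 and 21536990 in Ob + EAE and 26284661, 21764016 and 17006586 in Ob + RSV. The Ob + EAE libraries had reads for 37165 and 38081 genes, whereas the Ob + RSV libraries had reads for 28632, 24450 and 32705. Ob + RSV replicate 2 stands apart, since 7.30% of its detected genes had under 10 reads, against 29.4% and 37.5% in the other Ob + RSV libraries and 43.5% and 43.4% in Ob + EAE. The Ob + EAE libraries correlated more closely with each other (Pearson's r of log2 CPM across genes 0.994) than the Ob + RSV libraries did (0.953 to 0.968). Both Ob + EAE libraries were nearer to Ob + RSV replicate 3 (0.981 and 0.977) than to replicates 1 and 2 (0.947 to 0.971). Of the genes that define the hypothalamus, such as Nkx2-1, Otp and Sim1, 12 of 19 had a log2FC above 0. The summed level of the 19 genes was 331 and 323 CPM (counts divided by the library's total and scaled to a common depth) in Ob + EAE and 381, 241 and 132 CPM in Ob + RSV. In Ob + RSV replicate 3, Nr5a1, a gene of the ventromedial nucleus, and Rax, a gene of tanycytes, had 0 reads.

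Of the genes called between Ob + EAE and Ob + RSV, 5 belong to the list of blood vessel genes, all of them higher in Ob + EAE. Across all genes, 15 passed the test, which asks for an adjusted p below 0.05 together with a log2FC no smaller than 1 in size (edgeR's quasi-likelihood test with Benjamini-Hochberg adjustment). Of the 30433 genes tested, 13 (0.0427%) were higher and 2 (0.00657%) were lower in Ob + EAE. This balance depended on the model, since DESeq2 called 183 higher and 160 lower on the 5 libraries and 104 and 93 on the 12 libraries. Both sets of DESeq2 calls included the 15. In all 15, every Ob + EAE library lay on 1 side of all Ob + RSV libraries. Without a correction for the number of tests, 2806 genes (9.22%) had p under 0.05, 1663 of them higher and 1143 lower. The rule for named genes takes the 8 largest increases, and the other 5 called genes, Ptprb, Eng, Podxl, Notch3 and Slit1, are named because they complete the list, after their values were seen.

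Among the called genes were the receptors of angiogenic ligands on the endothelium. Flt1, which encodes VEGF receptor 1, was at 86.2 and 95.0 CPM in Ob + EAE and at 23, 14.5 and 19.8 CPM in Ob + RSV. Both Ob + EAE libraries were above every Ob + RSV library, with a fitted log2FC of 2.21 (SE 0.33, adjusted p = 0.00659). Kdr, which encodes VEGF receptor 2, the main signaling receptor of the pathway, was at 22.3 and 21.2 CPM in Ob + EAE and at 5.25, 2.76 and 5.29 CPM in Ob + RSV, a log2FC of 2.26 (SE 0.36). Tie1, which encodes the partner of the angiopoietin receptor, was at 18.4 and 18.0 CPM in Ob + EAE and at 3.65, 0.919 and 3.06 CPM in Ob + RSV, a log2FC of 2.78 (SE 0.49). In each of these genes the 2 Ob + EAE libraries lay close together and the nearest Ob + RSV library lay at least 3.74-fold below them. Eng, which encodes endoglin, a co-receptor of the transforming growth factor beta family on endothelium, was at 32.7 and 32.9 CPM against 10.9, 9.88 and 10.1 CPM, a log2FC of 1.65 (SE 0.24) with little spread in either group. Notch3, a receptor of pericytes and vascular smooth muscle, rose by a log2FC of 1.25 (SE 0.22), from 17.5, 23.9 and 22.2 CPM in Ob + RSV to 46.8 and 54.2 CPM in Ob + EAE.

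The other called genes linked to vessels encode surface, transport and matrix proteins. Abcb1a, which encodes the P-glycoprotein efflux pump of the blood-brain barrier, was at 33.1 and 37.2 CPM in Ob + EAE and at 9.74, 5.47 and 10.3 CPM in Ob + RSV, a log2FC of 2.02 (SE 0.29). Ptprb, the endothelial receptor phosphatase that acts on the angiopoietin receptor, reached 48.2 and 60.0 CPM against 11.5, 18.1 and 15.8 CPM. Podxl, a sialomucin of the endothelial surface, reached 40.5 and 43.2 CPM against 15.4, 9.56 and 13.8 CPM. Both were higher in every Ob + EAE library, by a log2FC of 1.85 (SE 0.26) for Ptprb and 1.66 (SE 0.29) for Podxl. Hspg2, which encodes perlecan of the basement membrane, was at 22.5 and 24.2 CPM against 4.30, 6.94 and 5.70 CPM, a log2FC of 2.05 (SE 0.28). Fn1, which encodes fibronectin, was at 49.1 and 58.9 CPM against 9.24, 7.95 and 10.9 CPM, a log2FC of 2.51 (SE 0.46, adjusted p = 0.0488 by edgeR). Its groups were separated by 4.46-fold between the nearest libraries, although C replicate 1 also reached 40.7 CPM.

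The called genes that are not known for a role in vessels were Slit1, Klhl11 and Plcxd3 among those higher and the near-identical pair Gm21887 and Gm47283 among those lower. Slit1, which encodes an axon guidance ligand, was at 197 and 237 CPM in Ob + EAE and at 78.6, 95.0 and 90.8 CPM in Ob + RSV, a log2FC of 1.29 (SE 0.24). Klhl11, which encodes an adaptor of a ubiquitin ligase, was at 27.9 and 43.9 CPM against 4.15, 5.65 and 4.70 CPM. Plcxd3, which encodes a phospholipase C-like protein, was at 12.0 and 18.2 CPM against 1.33, 0.735 and 2.94 CPM and had the largest log2FC of the called genes, 3.18 (SE 0.56). Both genes varied more between the Ob + EAE libraries than the vessel genes did, and both varied widely in C, from 3.74 to 21.0 CPM for Klhl11 and from 2.11 to 7.88 CPM for Plcxd3. Gm21887 was at 39.8 and 31.9 CPM in Ob + EAE and at 126, 135 and 142 CPM in Ob + RSV, a log2FC of -1.92 (SE 0.28). Gm47283 was at 18.8 and 17.1 CPM against 60.4, 74.5 and 73.4 CPM, a log2FC of -1.96 (SE 0.29). Their transcripts share 469 runs of 31 bases, 93.6% of those of Gm21887 and 65.1% of those of Gm47283, so reads may be split between them and they are uncertain as separate results.

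**Figure D1:**
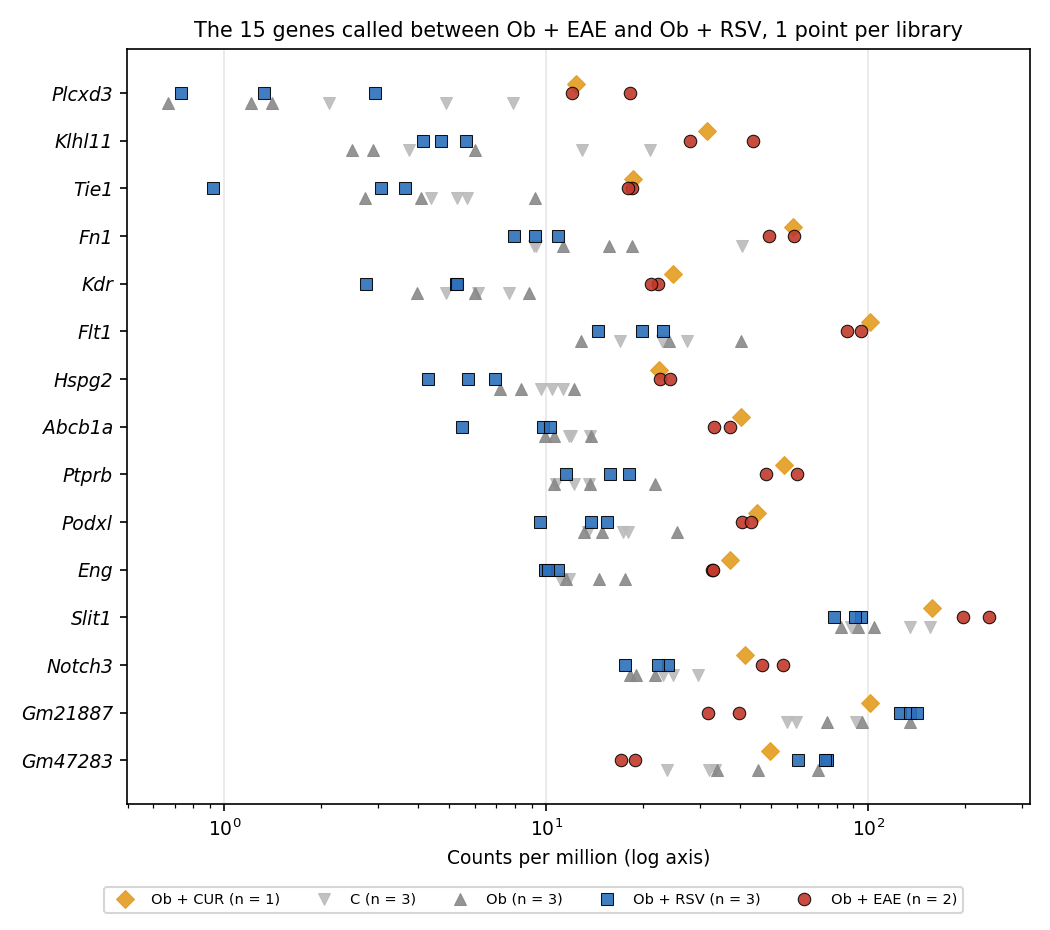
CPM (log axis) of the 15 called genes, with 1 point per library, in Ob + EAE, Ob + RSV and, as background, Ob, C and Ob + CUR. In the 13 upper genes both Ob + EAE points lie to the right of every Ob + RSV, Ob and C point, and in the 2 lower genes they lie to the left of all of them.

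Values in the control groups give the background to these calls. In all 13 genes called higher, both Ob + EAE libraries were above every Ob and every C library too, and in both genes called lower they were below all of them. Flt1, for example, ran from 12.8 to 40.3 CPM in Ob and from 17.0 to 27.3 CPM in C. The single Ob + CUR library, which has no replicate, was also above all Ob + RSV, Ob and C libraries in 13 of the 13 genes, with Flt1 at 101 CPM, and it was below all Ob + RSV libraries in both lower genes. Mitochondrially encoded genes took 4.12% and 3.94% of the counts in Ob + EAE and 3.79% in Ob + CUR, against 5.27% to 6.18% in Ob + RSV and 4.94% to 7.40% in Ob and C. Whether the Ob + EAE and Ob + CUR libraries were prepared together and apart from the others is not stated in the labels, so a shared preparation and the treatments cannot be told apart. Leaving out Ob + RSV replicate 2, the library that stands apart, left 3 genes called, among them Abcb1a and Hspg2 of the 15, and leaving out either Ob + EAE library left 0 called (1544 and 628 genes at an unadjusted p under 0.05). The direction of all 15 was the same in every fit.

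The list of blood vessel genes, which was chosen with earlier results of these data known, was mostly higher in Ob + EAE. It includes 5 of the called genes, which are counted again in each share and median below. Of the 24 members, all tested, of a list of endothelial, pericyte and smooth muscle genes, 5 were called higher (Abcb1a, Flt1, Eng, Kdr and Tie1) and 0 lower, and 17 had an unadjusted p under 0.05, all of them higher. In 20 of the 24 (83.3%) both Ob + EAE libraries were above all Ob + RSV libraries and in 1 (Kcnj8) both were below, whereas over all genes tested 18.9% were higher and 11.1% lower in this sense. The 5 libraries allow 10 groupings, so the smallest two-sided permutation p is 0.2 and no p is given for a lack of overlap. The median log2FC of the list was 1.05, against 0.01 over all genes. In 10 of the 24 the nearest libraries of the groups were at least 2-fold apart with Ob + EAE higher, against 2.35% of all genes, and in none with Ob + EAE lower, against 0.312%. With any 1 of the 5 libraries left out, 20 or 21 of the 24 were higher without overlap, against 23.6% to 34.9% of all genes. Genes that are apart in all 5 libraries stay apart when 1 is left out, so this is no check of the 20.

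By role, the adhesion and junction genes of the endothelium were next to the receptors. Cdh5, which encodes VE-cadherin, was at 15.4 and 15.8 CPM in Ob + EAE and at 2.97, 1.24 and 4.12 CPM in Ob + RSV, a log2FC of 2.47 (SE 0.55) with an adjusted p of 0.165 by edgeR. Pecam1, which encodes the adhesion molecule CD31, had a log2FC of 1.56 (SE 0.32) and Cldn5, the claudin of the barrier's tight junctions, one of 1.27 (SE 0.37). Tek, which encodes the angiopoietin receptor, had a log2FC of 1.59 (SE 0.39). None of these 4 passed the adjusted threshold, although the groups did not overlap in any of them. Among barrier transporters, Slco1c1, a carrier of thyroid hormone, had a log2FC of 1.13 (SE 0.26), Slc2a1, the glucose transporter GLUT1, one of 0.65 (SE 0.28), and Mfsd2a, a lipid transporter, one of 0.37 (SE 0.45). Their groups did not overlap either, but the nearest libraries of Mfsd2a were at 20.8 and 19.7 CPM.

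Genes of mural cells had positive values in smooth muscle and mixed ones in pericytes. Myh11 and Acta2, contractile proteins of smooth muscle, had log2FCs of 1.76 (SE 0.41) and 1.73 (SE 0.47). Acta2 was at 11.1 and 11.5 CPM in Ob + EAE and at 5.06, 3.54 and 1.18 CPM in Ob + RSV. The pericyte genes Rgs5, Pdgfrb and Abcc9 had log2FCs of 0.97 (SE 0.23), 0.83 (SE 0.25) and 0.76 (SE 0.32), without overlap. Vtn, which pericytes also express, was at 61.2 and 57.7 CPM against 58.4, 66.5 and 48.7 CPM, and Kcnj8, a potassium channel subunit of pericytes, had a log2FC of -0.35 (SE 0.41). The endothelial genes Ly6c1 and Egfl7 had log2FCs of -0.10 (SE 0.28) and 0.16 (SE 0.25), so the list did not move as a whole. Tagln, another smooth muscle gene, had at most 9 reads in any of the 5 libraries.

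**Figure D2:**
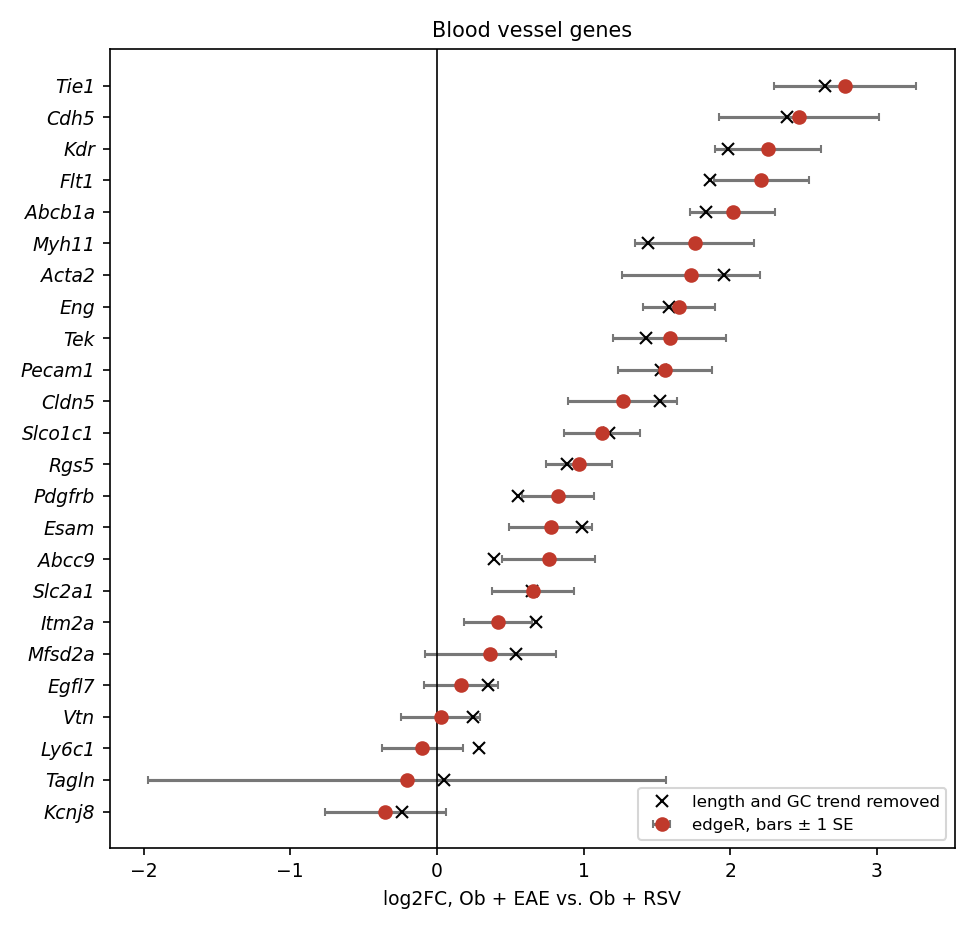
Fitted log2FC of Ob + EAE vs. Ob + RSV for the 24 tested blood vessel genes, with bars of 1 SE, and the log2FC with the length and GC trend taken out (crosses). Of the 24 genes, 21 lie above 0 in the first and 23 in the second.

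Summed over the list, the blood vessel genes reached 815 and 799 CPM in Ob + EAE and 449, 406 and 400 CPM in Ob + RSV. The sums in Ob (490 to 548 CPM) lay between the treated groups, and those in C (434 to 484 CPM) overlapped Ob + RSV. Red cell genes, which mark blood left in the tissue, were above 0 in 6 of the 6 tested (8 listed), with a median log2FC of 0.88, and in 4 of 6 the groups did not overlap. Their summed level was 226 and 188 CPM in Ob + EAE and 194, 111 and 61.0 CPM in Ob + RSV, so these sums did overlap. Of 20 genes of meningeal fibroblasts and collagens, 1 was called (Fn1). Without overlap 8 (40.0%) were higher and 1 (5.00%) lower, against 18.9% and 11.1% of all genes. Among genes of similar transcript length (3664 to 5054 bases, mean of at least 1 CPM), 29.0% were higher and 8.31% lower. Their summed level was 178 and 191 CPM in Ob + EAE and 102, 123 and 127 CPM in Ob + RSV. The part of blood and meninges in the vessel values was not tested.

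A second pattern ran across all genes and followed the length of the transcript. When the genes with a mean of at least 1 CPM and a known transcript length were split into 5 classes by the longest transcript, the median log2FC went from -0.39 in the shortest class (59 to 1593 bases) through -0.18, -0.01 and 0.14 to 0.35 in the longest (5055 to 123179 bases). Both Ob + EAE libraries were above all Ob + RSV libraries in 9.12% of the genes of the shortest class and in 44.4% of those of the longest. The reverse held in 33.0% and 2.84%. Of the 13 genes called higher, 8 were in the longest class. In that class the median deviation from the gene's mean over the libraries was 0.22 and 0.34 in Ob + EAE and -0.15, -0.24 and 0.10 in Ob + RSV (log2), so Ob + RSV replicate 3 was nearest to Ob + EAE. The Ob + CUR library was at 0.31, and Ob ran from -0.37 to -0.07.

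**Figure D3:**
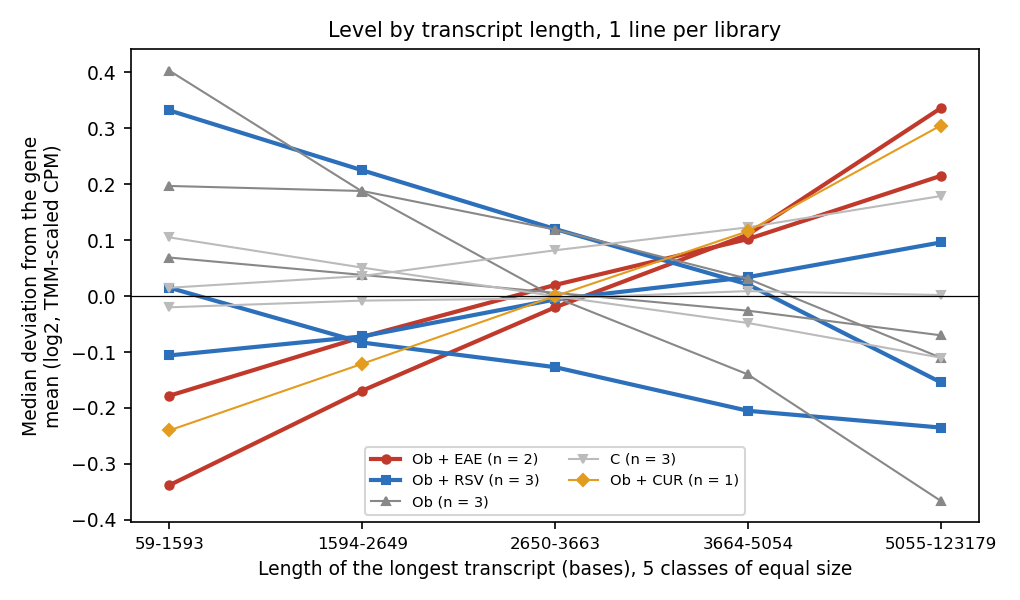
Median deviation of a gene's level from its mean over the libraries (log2, TMM-scaled CPM) in 5 classes of transcript length, with 1 line per library. Both Ob + EAE lines and the Ob + CUR line rise from below 0 in the shortest class to above 0.2 in the longest, and the Ob + RSV lines end at -0.15, -0.24 and 0.10.

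When the dependence on length and GC content was taken out of every library, an alternative chosen after the data were seen, 2 genes remained called, Abcb1a and Eng, both higher (adjusted p = 0.0188 by edgeR). That fit was limited to the 24576 genes with a known length, and on these genes 8 were called before the trend was taken out. The median log2FC of the blood vessel list stayed at 1.08. All 15 genes kept their direction. The log2FC of Flt1 went from 2.21 to 1.86, that of Kdr from 2.26 to 1.98 and that of Tie1 from 2.78 to 2.64. Klhl11 went from 2.89 to 3.00, Plcxd3 from 3.18 to 3.15 and Gm47283 from -1.96 to -1.90. The changes were larger in Notch3, from 1.25 to 0.77, in Ptprb, from 1.85 to 1.26, and in Hspg2, whose transcript has 14187 bases, from 2.05 to 1.34. The median of the red cell genes went from 0.88 to 1.23 and that of the meningeal and collagen genes from 0.25 to 0.20. The medians of several lists changed with this step, and both values are given for most of those described next.

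Genes of energy metabolism and translation had mostly negative values. None of 58 cytosolic ribosomal protein genes had a log2FC above 0. In 37 of them Ob + EAE was lower without overlap, against 11.1% of all genes and 33.0% of the shortest length class. None of them was called by edgeR, 28 had an unadjusted p under 0.05, and the median log2FC was -0.65, or -0.35 with the length and GC trend removed. Rplp1, a stalk protein of the large subunit, was at 121 and 98.4 CPM in Ob + EAE and at 345, 302 and 181 CPM in Ob + RSV, a log2FC of -1.36 (SE 0.34, adjusted p = 0.194 by edgeR). Of 65 nuclear genes of oxidative phosphorylation, 44 (67.7%) were lower without overlap and 0 higher, with a median of -0.67 (-0.32 with the trend removed). Cox6c, a subunit of cytochrome c oxidase, was at 107 and 94.4 CPM against 242, 240 and 178 CPM, and the groups were well apart. Of 15 mitochondrially encoded genes, 11 were lower without overlap, with a median of -0.44 (-0.04 with the trend removed). The mitochondrial ribosomal RNAs had the largest differences among them. mt-Rnr1 was at 1760 and 1560 CPM in Ob + EAE and at 3980, 4290 and 3920 CPM in Ob + RSV, a log2FC of -1.31 (SE 0.30), or -0.91 with the trend removed.

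Antioxidant genes, several of them targets of the transcription factor Nrf2, showed a similar direction. Of 31 tested, 13 (41.9%) were lower and 1 (3.23%) higher without overlap, against 11.1% and 18.9% of all genes. In the length class of 1594 to 2649 bases, which holds the list's median length, 23.5% were lower and 8.77% higher. At an unadjusted p under 0.05 there were 10 of the 31, all lower, and 0 were called by edgeR. The median log2FC was -0.49, or -0.23 with the trend removed. Fth1, which encodes the heavy chain of ferritin, was at 835 and 707 CPM in Ob + EAE and at 1490, 1340 and 1110 CPM in Ob + RSV. Txn1, which encodes thioredoxin, was at 39.7 and 35.4 CPM against 71.5, 71.4 and 49.6 CPM, a log2FC of -0.79 (SE 0.24). Both groups were apart in these genes, as in Sod1, Prdx1, Prdx2 and Prdx6, whereas the metallothionein genes Mt1 and Mt3 overlapped through Ob + RSV replicate 3.

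Peptide genes of the hypothalamus had mostly negative values. Of the 6 feeding peptides, Cartpt, Npy, Pmch, Hcrt, Pomc and Agrp, 0 had a log2FC above 0, and the groups were apart in Pmch alone. Their median log2FC was -0.76, or -0.31 with the trend removed. Pmch, which encodes melanin-concentrating hormone and promotes feeding, was at 297 and 256 CPM in Ob + EAE and at 531, 457 and 460 CPM in Ob + RSV, a log2FC of -0.82 (SE 0.29, adjusted p = 0.367 by edgeR), or -0.37 with the trend removed. Pomc, the precursor of the satiety peptide alpha-MSH and of pituitary ACTH, was at 63.1 and 51.9 CPM against 166, 56.8 and 2.53 CPM, so the Ob + RSV libraries themselves spanned the Ob + EAE values. Its log2FC was -0.48 (SE 0.78), and it ran from -1.04 to 0.96 when 1 library was left out. Agrp was below 1 CPM in all 5 libraries. Cartpt, Npy and Hcrt also overlapped, each because Ob + RSV replicate 3 was below Ob + EAE. Markers of the anterior pituitary (8 tested of 13 listed) summed to 67.5 and 58.0 CPM in Ob + EAE and to 169, 63.2 and 6.59 CPM in Ob + RSV. Most of each sum was Pomc, except in Ob + RSV replicate 3, where Pomc was at 2.53 CPM. Gh and Prl were at 1.07 CPM or less throughout.

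Of 22 other peptides and releasing hormones, 8 (36.4%) were lower and 1 (4.55%) higher without overlap, against 11.1% and 18.9% of all genes. In the shortest length class, which holds the list's median length, 33.0% were lower and 9.12% higher, so the share of lower genes was near that class. The median log2FC of the list was -0.66 (-0.29 with the trend removed). Sst, which encodes somatostatin, was at 132 and 115 CPM in Ob + EAE and at 292, 177 and 146 CPM in Ob + RSV. Tac2, which encodes neurokinin B, was at 26.8 and 22.7 CPM against 32.1, 47.5 and 61.3 CPM, a log2FC of -0.92 (SE 0.25, adjusted p = 0.238 by edgeR). Gal, Penk and Cck were also apart and lower. Nms, a peptide of the suprachiasmatic nucleus, had a log2FC of -3.35, but it was at 0.342 CPM in Ob + RSV replicate 1, next to 0.331 and 0.325 CPM in Ob + EAE, and at 5.01 and 5.29 CPM in the other libraries of Ob + RSV. Vip, another gene of that nucleus, was at 24.4 CPM in Ob + RSV replicate 3 and at 1.37 to 3.49 CPM in the other 4 libraries. The cholinergic genes Chat and Slc5a7 were also highest in Ob + RSV replicate 3, at 18.7 and 38.2 CPM, and overlapped.

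Receptor genes lay above 0 more often. All 27 ionotropic and metabotropic glutamate receptor genes had a log2FC above 0. In 18 (66.7%) the groups did not overlap, against 18.9% of all genes and 44.4% of the longest length class, which holds the list's median length. Of the 27, 10 had an unadjusted p under 0.05 and 0 were called by edgeR. Their median log2FC was 0.36, and with the trend removed it was 0.10 with 18 of 27 above 0. Grin2d, an NMDA receptor subunit, was at 118 and 116 CPM in Ob + EAE and at 59.9, 91.7 and 69.0 CPM in Ob + RSV. Of 24 genes for receptors of GABA and glycine, 7 (29.2%) were higher and 0 lower without overlap, against 18.9% and 11.1% of all genes. In the length class of 3664 to 5054 bases, which holds the list's median length, 29.0% were higher, a share near that of the list. The median log2FC of the list was 0.24 (0.10 with the trend removed). Gabrb2, which encodes a beta subunit of GABA-A receptors, was at 60.6 and 86.9 CPM against 6.05, 12.4 and 28.9 CPM, a log2FC of 2.25 (SE 0.63, adjusted p = 0.248 by edgeR). It varied as widely outside these groups, from 7.62 to 46.1 CPM in C.

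Genes of leptin and insulin signaling were above 0 in 22 of 26, and in 12 (46.2%) the groups did not overlap with Ob + EAE higher, against 18.9% of all genes and 44.4% of the genes in the longest length class. The median log2FC of 0.29 was 0.01 with the trend removed. Lepr, which encodes the leptin receptor, was at 5.87 and 7.71 CPM in Ob + EAE and at 1.22, 3.58 and 0.764 CPM in Ob + RSV, a log2FC of 1.88 (SE 0.75, adjusted p = 0.443 by edgeR). Igf1r, the receptor of insulin-like growth factor 1, was at 75.3 and 87.7 CPM against 39.4, 49.8 and 57.0 CPM, and Mtor, the kinase of nutrient sensing, was at 152 and 159 CPM against 96.6, 106 and 88.3 CPM. Neither passed the adjusted threshold, and their log2FCs of 0.74 and 0.67 were 0.19 and 0.22 with the trend removed.

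Other pathways and cell types had medians between -0.42 and 0.34. The lowest was that of the immediate-early genes of neuronal activity, at -0.42 (-0.35 with the trend removed). Of 18 cytosolic heat shock genes, 8 (44.4%) were lower and 0 higher without overlap, against 11.1% and 18.9% of all genes. In the length class of 2650 to 3663 bases, which holds that list's median length, 14.2% were lower and 15.8% higher. The median of the heat shock genes was -0.21 (-0.245 with the trend removed), and 0 were called by edgeR. In TNF and NF-kB signaling, the pathway of inflammatory cytokines, 23 of 37 genes were above 0 and 8 (21.6%) were higher without overlap, a share near the 18.9% of all genes, and the median was 0.20 (0.05 with the trend removed). Its member with the smallest p was Cxcl12, a chemokine that vessels express, at 53.2 and 62.7 CPM in Ob + EAE and at 18.6, 6.07 and 17.3 CPM in Ob + RSV (log2FC 2.01, SE 0.40, adjusted p = 0.0962 by edgeR). Complement genes were evenly split (12 of 24 above 0, median -0.11, or -0.06 with the trend removed). Genes of cholesterol synthesis and transport had 17 of 32 above 0 and a median of 0.05 (-0.03 with the trend removed). Sirtuin, AMPK and PGC-1 genes had 10 of 21 above 0 and a median of -0.03 (-0.12 with the trend removed). In that list 5 (23.8%) were lower and 2 (9.52%) higher without overlap, against 11.1% and 18.9% of all genes. Of the cell types, oligodendrocyte and myelin genes had a median of -0.17 (-0.08 with the trend removed), with 8 of 25 above 0. None was called, and 8 (32.0%) were lower and 2 (8.00%) higher without overlap. Their summed level was 7103 and 6685 CPM in Ob + EAE against 10120, 8939 and 9364 CPM in Ob + RSV. A large part of it was Mbp, at 2450 and 2260 CPM against 4220, 3310 and 3270 CPM. Mobp, a myelin protein and the member with the smallest p, was at 717 and 690 CPM against 1320, 1210 and 1130 CPM. Its log2FC was -0.82 (SE 0.26, adjusted p = 0.324 by edgeR). Oligodendrocyte precursor genes had a median of 0.21 (0.04 with the trend removed), astrocyte genes of -0.12 (-0.12), microglia genes of -0.27 (-0.13), tanycyte genes of -0.11 (-0.09) and ependymal cilia genes of -0.27 (-0.09). Over all genes 11.1% were lower and 18.9% higher without overlap, and 23.5% and 8.77% in the length class of 1594 to 2649 bases. Of 20 microglia genes, 5 were lower and 3 higher in this sense. The lower ones included Aif1, at 1.42 and 1.53 CPM against 5.59, 4.37 and 4.82 CPM, and Trem2, the higher ones included Csf1r and Selplg, and microglia sums overlapped at 454 and 421 CPM against 471, 427 and 514 CPM. Medians of thalamus, cortex and hippocampus, striatum and choroid plexus markers lay between -0.26 and 0.34, and between -0.28 and 0.33 with the trend removed.

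**Figure D4:**
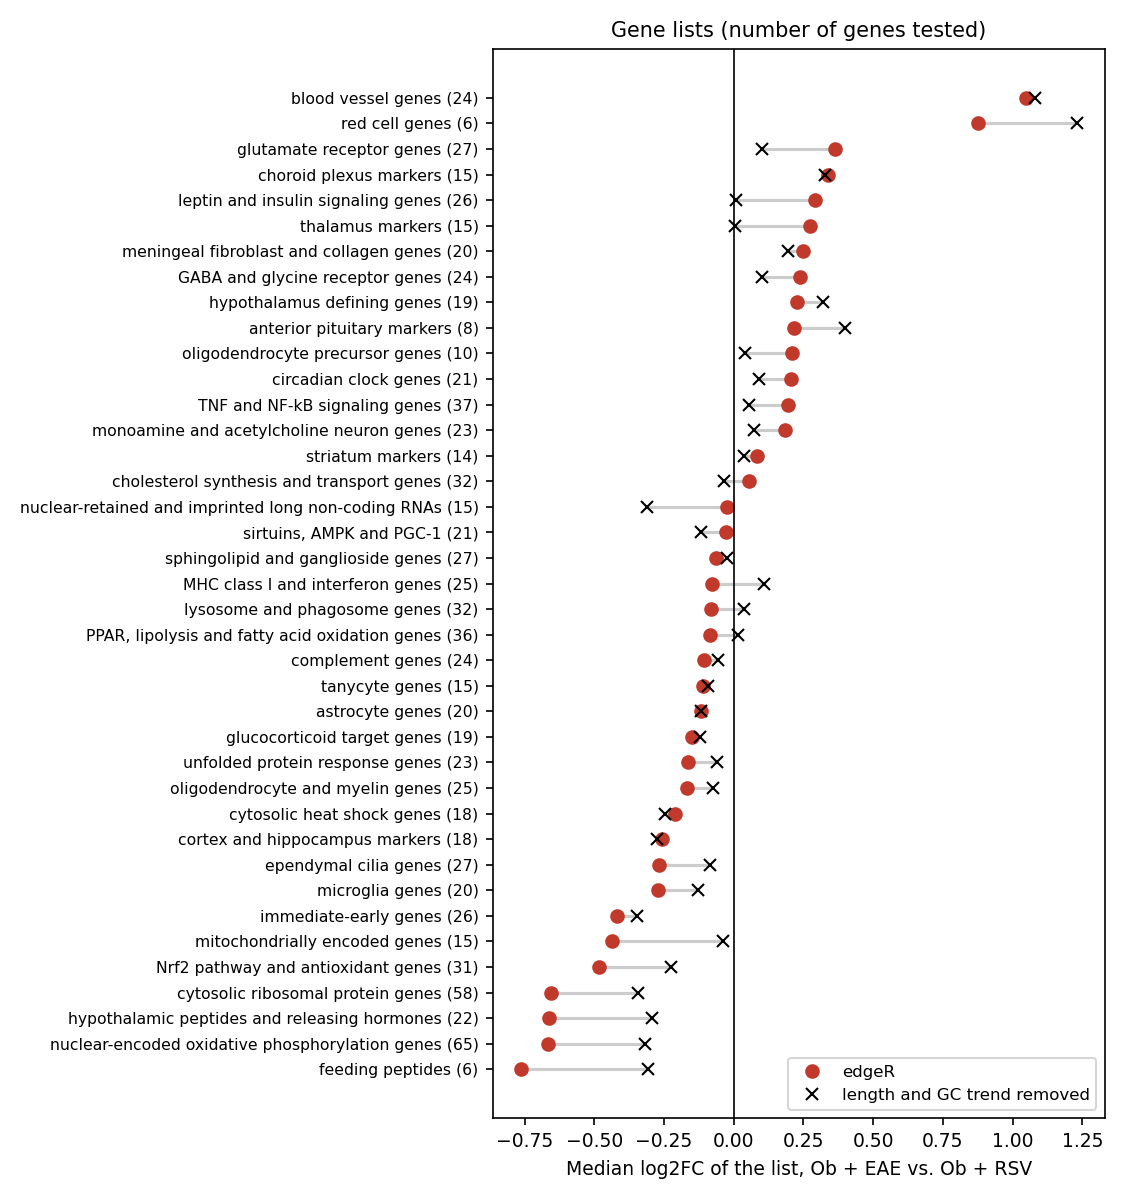
Median log2FC of Ob + EAE vs. Ob + RSV in 39 gene lists (number of genes tested in brackets), from edgeR (points) and after the trend on length and GC content was taken out (crosses). Blood vessel genes stay at 1.05 and 1.08, whereas ribosomal protein genes move from -0.65 to -0.35 and leptin and insulin signaling genes from 0.29 to 0.01.

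Among single genes outside the called set, the widest separations included several of low level. Of the genes with a mean of at least 1 CPM, 168 were higher and 47 lower with at least 2-fold between the nearest libraries. Kcna3, a voltage-gated potassium channel, was at 12.5 and 15.5 CPM in Ob + EAE and at 0.723, 0.0459 and 2.23 CPM in Ob + RSV, a log2FC of 3.82 (SE 0.77, adjusted p = 0.0968 by edgeR). Hs6st3, a heparan sulfate sulfotransferase, was at 8.00 and 9.98 CPM against 0.951, 0.919 and 1.06 CPM, with the Ob + RSV libraries close together. Slc6a3, the dopamine transporter, was at 16.2 and 14.4 CPM against 3.80, 2.66 and 1.23 CPM, a log2FC of 2.52 (SE 0.50, adjusted p = 0.0865 by edgeR). In C, Slc6a3 ran from 4.94 to 14.6 CPM. Th, the enzyme that starts dopamine synthesis, was at 42.1 and 36.2 CPM against 48.4, 42.5 and 25.7 CPM and overlapped. The widest gaps with Ob + EAE lower, beside the called pair, were in unnamed transcripts such as Gm44242, at 0.947 and 0.975 CPM against 6.51, 4.46 and 4.82 CPM, and Gm5415, at 2.65 and 1.81 CPM against 11.3, 12.5 and 11.7 CPM. Both varied widely in C, from 0.596 to 11.3 CPM for Gm44242 and from 2.5 to 25.9 CPM for Gm5415.

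Bc1, a short neuronal RNA that binds the translation machinery in dendrites, was also far apart between the groups, and it was named after its values were seen. Its reference transcript (GENCODE vM21) of 168 bases is shown with its A-rich stretch in capitals, bases 77 to 136 with 49 A in 60 bases. The stretch lies inside the RNA, and the libraries were made from poly(A) RNA. Whether the stretch bears on the counts of Bc1 was not tested.
Bc1 transcript: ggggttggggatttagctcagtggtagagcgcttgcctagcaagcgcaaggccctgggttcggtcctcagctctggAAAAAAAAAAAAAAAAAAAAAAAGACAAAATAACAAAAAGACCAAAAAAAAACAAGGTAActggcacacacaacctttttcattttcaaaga
Bc1 was at 299 and 236 CPM in Ob + EAE and at 2900, 4370 and 800 CPM in Ob + RSV, and thus lower in both Ob + EAE libraries, with a log2FC of -3.34 (SE 0.77, adjusted p = 0.169 by edgeR). The spread within groups was also large in Ob, where it ran from 804 to 6720 CPM, and it ran from 1280 to 2220 CPM in C. The Ob + CUR library was at 246 CPM.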

How the data were processed

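Hypothalamic RNA was measured by RNA sequencing in 12 libraries. According to the labels, the RNA was extracted with Trizol, and stranded poly(A) libraries were sequenced from both ends. The authors aligned these with HISAT2 and deposited whole, unscaled read counts per gene from featureCounts, with GRCm39 named in the submitters' processing notes. The annotation release, strand setting and treatment of multiply aligned reads were not given in the sources used here. Near-identical and antisense genes are therefore uncertain. Gene IDs were matched to symbols for 51486 of 78334 genes (65.7%), and the length and GC content of transcripts were taken from GENCODE vM21, known for 80.8% of the genes tested.

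Counts were fitted with the quasi-likelihood functions glmQLFit and glmQLFTest of edgeR 4.0.16 after TMM scaling (R 4.3.3), in 1 fit of all 12 libraries with no factor other than group (7 residual degrees of freedom), because 2 and 3 libraries alone leave 3. The contrast was Ob + EAE minus Ob + RSV, over genes with at least 10 reads in the 5 libraries. Calls needed an adjusted p (Benjamini-Hochberg) below 0.05 and a log2FC no smaller than 1 in size. The SE is the size of the log2FC divided by the square root of F. CPM are counts scaled by the total counts of a library, and gaps between libraries use CPM plus 0.1. Intervals and SEs cover the spread between libraries and counting error.

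The named genes are the called genes with the 8 largest increases and decreases, the 8 genes in each direction with the widest gap (mean of at least 1 CPM), up to 2 members of each list with the smallest p, and 8 peptide genes. Genes given as list members are further examples. Of 929 entries in 39 gene lists, 923 had 1 gene ID. The comparison, the lists and the tests were chosen with earlier results of these data known. Alternatives were RLE and upper quartile scaling, other filters, edgeR on 5 libraries, DESeq2 1.42.0, a replicate block, no minimum on log2FC, unadjusted p and leaving out each library. Fits without the libraries of few detected genes, on genes with a transcript length, and with the length and GC trend removed (lowess, span 0.3) were added after the data were seen. The procedure was tested on simulated data. Python 3.11.15 with pandas 2.3.3 and matplotlib 3.10.9 made the figures.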

Additional observations from a re-analysis of the deposited data

Results flagged for a closer look

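The single Ob + CUR library, which enters no comparison here, had a summed level of the blood vessel genes of 895.7 CPM. The highest C library was at 484.1 CPM, and the Ob + EAE libraries were at 815 and 799 CPM. With 1 library there is no replicate check.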

How the results depend on the processing

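The number of genes called between Ob + EAE and Ob + RSV, 15, and the balance of higher and lower calls depended on the processing. The number was 15 with RLE scaling, 17 with upper quartile scaling, 21 with edgeR on the 5 libraries and 15 with no minimum on log2FC. It was 6 (4 higher) with edgeR's expression filter (filterByExpr), 321 (179 higher) with at least 1 read, 343 (183 higher) with DESeq2 on the 5 libraries, 197 (104 higher) with DESeq2 on the 12 libraries and 1101 at an unadjusted p. Among alternatives chosen after the data were seen, it was 5 (3 higher) without the libraries of few detected genes, 8 (6 higher) on genes with a transcript length and 2 on the same genes with the length and GC trend removed. The share of higher genes among those called was 86.7% in the fit reported, 55.8% with at least 1 read, 53.4% and 52.8% with DESeq2 and 39.4% with the block. Leaving out 1 library gave 0 to 144 called genes, with 0 without either Ob + EAE replicate, 3 without Ob + RSV replicate 2 and 144 without Ob + RSV replicate 3. The lone Ob + EAE library is then assumed to vary like the other groups. The cause was not tested.

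Genes without overlap numbered 5737 higher and 3377 lower, and 715 and 95 with at least 2-fold between the nearest libraries. With 1 library left out they ranged from 6405 to 9810 higher and from 4126 to 5969 lower, since fewer libraries overlap less often. A replicate block gave 259 called genes (102 higher), which included the 15. The deviations of same-numbered libraries correlated at 0.275 for replicates 1 and 0.086 for replicates 2 of Ob + EAE and Ob + RSV, and over all 15 same-numbered pairs of groups from -0.11 to 0.41, so the labels and these values do not establish that numbers pair the libraries. None of the 15 called genes reversed under any alternative. The lowest total, 17006586 counts in Ob + RSV replicate 3, and the few genes of low count in Ob + RSV replicate 2 limit what can be said of genes with few reads.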

Other observations

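Families of long genes for cell-surface and secreted proteins were higher in Ob + EAE in nearly all their members. They were chosen after their values were seen, so no test is given. Higher without overlap were 18.9% of all genes tested, 29.0% of the length class of 3664 to 5054 bases and 44.4% of the longest class. The clustered protocadherins, which give neurons their surface identity, had 21 of 22 Pcdhg and 10 of 14 Pcdha genes with both Ob + EAE libraries above all Ob + RSV libraries. Their median log2FCs were 1.55 and 1.81, or 1.37 and 1.55 with the length and GC trend removed, and genes within a cluster share their last exons, so reads may be shared among them. All 4 teneurins (Tenm1 to Tenm4), adhesion proteins of synapses, were higher without overlap, with a median of 1.39 (0.90 with the trend removed). Tenm3 was at 93.4 and 120 CPM in Ob + EAE and at 25.4, 24.9 and 46.3 CPM in Ob + RSV. The 3 Slit ligands and the 4 Notch receptors were also higher without overlap, with medians of 1.29 and 1.09 (0.96 and 0.64 with the trend removed). Of 11 laminin genes of basement membranes, 11 were above 0 and 7 were apart, with a median of 0.83 (0.50 with the trend removed).

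The families that were lower hold short transcripts. Over all genes tested, 11.1% were lower and 18.9% higher without overlap. In the shortest length class these shares were 33.0% and 9.12%, and in the next class 23.5% and 8.77%. Of 153 pseudogenes of ribosomal proteins, 71 were lower and 3 higher without overlap, with a median log2FC of -0.79 (-0.34 with the trend removed). Of 13 Snrp genes of the spliceosome, 8 were lower and 1 higher without overlap, with a median of -0.75 (-0.37 with the trend removed). Reads in both Ob + EAE libraries and 0 in all Ob + RSV libraries were found for 266 genes, and the reverse for 20 genes, beside the larger numbers of detected genes in Ob + EAE.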
